A study of Homo sapiens with 24 samples.

Results

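The genes described here are 10 carriers that move amino acids across the plasma membrane: SLC7A11, SLC7A5, SLC3A2, SLC7A1, SLC7A2, SLC38A1, SLC38A2, SLC1A4, SLC1A5, and SLC43A1. They were taken by symbol from a table of 26645 gene entries, and all 10 passed the filter on low counts that left 14741 genes for testing. RNA came from MDA-MB-468 (MB468), a triple-negative breast cancer line whose growth needs methionine (Met), and from MDA-MB-468res-R8 (MB468res-R8), 1 revertant clone of that line obtained by prolonged culture in homocysteine (Hcy) medium. Libraries at 0 h came from cells in medium that contained 100 µM Met (Met+). The others came 0.5, 2, or 12 h after a change to Met-Hcy+ medium, in which 370 µM DL-homocysteine replaced Met, and each of the 8 groups had 3 libraries. All cultures shared DMEM with dialyzed serum, vitamin B12, glutamine, and 100 µM cysteine. No library came from cells given fresh Met+ medium for the same times, so replacement of Met, the change of medium, and time in culture cannot be told apart within a line. The labels do not say that replicates were separate cultures, and p-values therefore measure only the spread among these libraries.

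Amino acids are polar and need carriers to enter cells. SLC3A2 (4F2hc, CD98) is a heavy chain that pairs through a disulfide bond with light chains of the SLC7 family: with SLC7A5 it forms LAT1, an exchanger for large neutral amino acids including methionine, and with SLC7A11 it forms system xc-, which imports cystine in exchange for glutamate. Cysteine from cystine and from methionine feeds glutathione synthesis. Shortage of an amino acid activates the kinase GCN2 and the transcription factor ATF4, and several carrier genes are known targets of ATF4, which binds C/EBP-ATF response elements. In bulk RNA, fewer cells that express a gene and less RNA per cell cannot be told apart.

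By the GENCODE v44 annotation of GRCh38, the genes lie as follows: SLC7A11 on chr4:138164097-138242349 (minus strand), SLC7A5 on chr16:87830023-87869507 (minus), SLC3A2 on chr11:62856004-62888880 (plus), SLC7A1 on chr13:29509414-29595688 (minus), SLC7A2 on chr8:17497088-17570573 (plus), SLC38A1 on chr12:46183063-46270017 (minus), SLC38A2 on chr12:46358188-46372773 (minus), SLC1A4 on chr2:64988477-65023865 (plus), SLC1A5 on chr19:46774883-46788594 (minus), and SLC43A1 on chr11:57484534-57515780 (minus).

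The libraries held between 11745553 and 36496655 counts, with a median of 20503827. The epithelial markers EPCAM, CDH1, KRT8, KRT18, KRT19, KRT5, and EGFR were all expressed, with EPCAM between 297 and 422 and EGFR between 2176 and 4087 TMM-normalized CPM (counts scaled to a common library size) over the group means. PGR had at most 2 counts in a library, and the leukocyte marker PTPRC had at most 7, while ESR1 (4.77 to 21.3 CPM), ERBB2 (41.1 to 88.3 CPM), and COL1A1 (14.9 to 65.4 CPM) were detected. Replicate 2 of MB468 at 2 h held 8251 counts of RN7SK against 44 to 357 in the other libraries. The number of transporters that passed the test at 2 h in MB468 was 2 with and 2 without that library.

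Sequence near the start of the transporter genes is shown because part of the set rose together at 12 h in MB468. RefSeq promoters on GRCh38.p14 (250 bases before and 50 after a start) were given for 8 of the 10 genes, in 15 windows. None was given for SLC7A11 or SLC7A2, and these were not searched. The letters TGATGNAA, the core of the C/EBP-ATF response element, were searched on both strands and occurred in 5 of the 15 windows, those of 5 genes, against 3.62% of all 35116 promoters. The letters TGACNNNGC, the core of the antioxidant response element, were found in 4 windows of 4 genes, against 13.3% of all promoters. Positions count from 0 at the first transcribed base of the start that a window belongs to, and some genes had windows at several starts. Sequences run 5′ to 3′ on the strand of the gene with the match in capitals. The matches to TGATGNAA were at position 7 in SLC7A1, 37 in SLC3A2, -4 in SLC38A1, -7 in SLC1A4, and -97 in SLC1A5. Only that of SLC7A1 was in a window at the start of the gene as annotated above. Those of SLC3A2, SLC38A1, SLC1A4, and SLC1A5 belonged to starts further inside the gene. The windows at the annotated gene starts of SLC3A2, SLC1A4, and SLC1A5 had no match to either run of letters.
SLC7A1, chr13:29595663-29595692, minus strand: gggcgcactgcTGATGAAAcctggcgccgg
SLC3A2, chr11:62881719-62881748, plus strand: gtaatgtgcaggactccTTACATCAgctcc
SLC38A1, chr12:46266502-46266531, minus strand: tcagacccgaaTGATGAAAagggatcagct
SLC1A4, chr2:64989381-64989410, plus strand: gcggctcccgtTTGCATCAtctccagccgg
SLC1A5, chr19:46784893-46784922, minus strand: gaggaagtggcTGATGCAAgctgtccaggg
SLC3A2 and SLC1A4 carried their match on the opposite strand. The matches to TGACNNNGC started at position -2 in SLC7A5, -37 in SLC3A2, -85 in SLC7A1, and -111 in SLC1A5, where the match was on the opposite strand. Those of SLC7A5 and SLC7A1 were in windows at the annotated gene start. Those of SLC3A2 and SLC1A5 belonged to starts further inside the gene.
SLC7A5, chr16:87869490-87869519, minus strand: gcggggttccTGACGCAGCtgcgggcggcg
SLC3A2, chr11:62881652-62881681, plus strand: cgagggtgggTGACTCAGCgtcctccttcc
SLC7A1, chr13:29595754-29595783, minus strand: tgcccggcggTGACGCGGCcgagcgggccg
SLC1A5, chr19:46787385-46787414, minus strand: cctggatcttGCGAGGTCAgctcccgctcc
SLC38A2 and SLC43A1 had neither run of letters in their windows. For wider context, the 250 bases before a start of SLC7A1, SLC3A2, and SLC7A5, the 3 transporters with the largest rise at 12 h in MB468, are given with whole matches in capitals.
SLC7A1, chr13:29595689-29595938, minus strand: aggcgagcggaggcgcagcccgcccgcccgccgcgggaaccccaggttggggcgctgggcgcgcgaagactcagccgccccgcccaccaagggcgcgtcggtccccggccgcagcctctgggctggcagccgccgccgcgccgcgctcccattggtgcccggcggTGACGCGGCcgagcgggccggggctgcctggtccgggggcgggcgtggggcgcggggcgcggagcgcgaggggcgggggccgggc
SLC3A2, chr11:62881449-62881698, plus strand: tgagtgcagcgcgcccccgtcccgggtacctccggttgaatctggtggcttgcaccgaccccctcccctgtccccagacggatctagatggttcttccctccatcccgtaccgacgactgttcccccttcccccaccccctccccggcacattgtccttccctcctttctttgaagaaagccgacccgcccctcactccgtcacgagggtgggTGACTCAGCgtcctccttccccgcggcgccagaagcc
SLC7A5, chr16:87869508-87869757, minus strand: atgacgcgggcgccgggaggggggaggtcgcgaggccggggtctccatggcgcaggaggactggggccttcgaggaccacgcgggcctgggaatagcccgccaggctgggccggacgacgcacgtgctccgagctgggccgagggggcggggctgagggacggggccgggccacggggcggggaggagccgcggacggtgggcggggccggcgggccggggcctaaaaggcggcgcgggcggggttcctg
A match describes the letters of a window and does not show that a factor was bound there.

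To set genes side by side, CPM was divided by exon length in kb. At 0 h in MB468 the order was SLC7A5 (405 ± 7.26 CPM per kb, SD, n = 3), SLC1A5 (146), SLC3A2 (81.0), SLC7A1 (52.3), SLC38A2 (50.4), SLC38A1 (47.6), SLC7A11 (16.5), SLC43A1 (11.3), SLC1A4 (3.57), and SLC7A2 (0.253). Only SLC7A1 and SLC38A2 overlapped with their neighbour in this order among the 3 libraries of that group. SLC7A2, a carrier of arginine and lysine, had between 8 and 72 counts in a library and was the least abundant transporter per kb in both lines at 0 h and 12 h. In MB468res-R8 at 0 h the order began with SLC7A5 (517), SLC1A5 (123), and SLC3A2 (73.8), and SLC43A1 (2.65) and SLC1A4 (2.64) overlapped near its end. The level of SLC3A2 depended on the gene model: with the canonical transcript in place of all exons it was 275 CPM per kb in MB468 at 0 h and ranked second, ahead of SLC1A5.

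**Figure D1:**
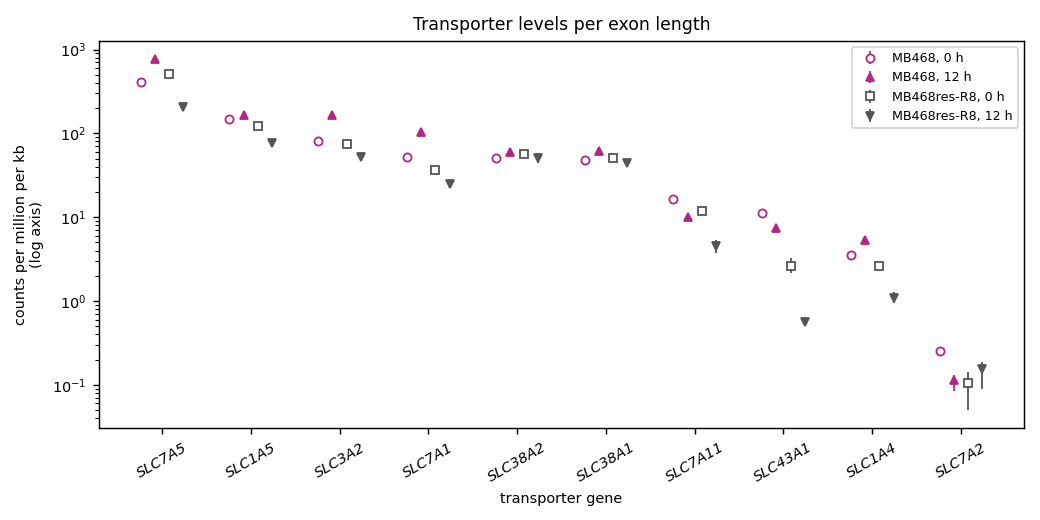
Mean CPM per kb of exon for the 10 transporter genes on a log axis, with MB468 in magenta and MB468res-R8 in gray, open symbols for 0 h and filled symbols for 12 h, and bars from the lowest to the highest of 3 libraries. SLC7A5 was highest in each of these 4 groups, from 206 in MB468res-R8 at 12 h to 763 in MB468 at 12 h.

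The lines already differed in Met+ medium. Of the 10 transporters, 2 were higher and 7 lower in MB468res-R8 at 0 h (edgeR's quasi-likelihood test, Benjamini-Hochberg adjusted p under 0.05 over all tested genes), while 26.4% of all tested genes were higher and 27.1% lower. The largest difference was in SLC43A1 (LAT3), a sodium-independent carrier of large neutral amino acids. Its CPM was 39.1, 37.4, and 42.9 in MB468 and 8.72, 11.6, and 7.70 in MB468res-R8. The groups were far apart, with a log2 difference of -2.09 ± 0.15 (SE) and an edgeR adjusted p of 2.4e-10. SLC7A1 (CAT1), the widespread carrier of arginine and lysine, was 392, 398, and 415 CPM in MB468 and 277, 302, and 275 in MB468res-R8, a log2 difference of -0.50 ± 0.04 (edgeR adjusted p = 7.6e-13). SLC7A11 was lower in the revertant line by -0.46 ± 0.11 (edgeR adjusted p = 0.0024), with 147, 150, and 179 CPM against 110, 122, and 114. None of the 3 MB468res-R8 libraries reached the lowest MB468 library for these genes. SLC1A4 (ASCT1), an exchanger of alanine, serine, and cysteine, and SLC1A5 (ASCT2), an exchanger that carries glutamine, were lower by log2 values of -0.44 and -0.25. SLC3A2 was lower by -0.13 ± 0.04, and SLC7A2 by -1.24 ± 0.30 at its low counts. SLC7A5 was higher, with 1908, 1908, and 1968 CPM in MB468 and 2509, 2666, and 2212 in MB468res-R8 (log2 difference 0.35 ± 0.07, edgeR adjusted p = 0.00019). SLC38A2 (SNAT2), a sodium-coupled carrier of small neutral amino acids, was higher by 0.19 ± 0.07 (edgeR adjusted p = 0.025), and SLC38A1 (SNAT1), which carries glutamine, had a log2 difference of 0.08 that did not pass. Counts of reads on added spike-in RNA moved the median of all genes at 0 h by -0.31, and with this scaling 0 transporters were higher and 7 lower, against 7.76% and 44.1% of all tested genes, with SLC7A5 at 0.04 and SLC38A2 at -0.12 no longer passing and SLC38A1 at -0.23, which did not pass. The call of SLC38A2 was also lost without MB468 0 h replicate 2 (0.18) or 3 (0.16), or without MB468res-R8 0 h replicate 1 (0.16) or 3 (0.17). That of SLC3A2 was lost without MB468res-R8 0 h replicate 3 (-0.09). It is not stated whether spike-ins were added per cell or per amount of RNA. Which scaling is closer to RNA per cell is therefore unknown. The spike-in share of counts also varied among replicates, less in some groups (0.201% to 0.221% over MB468 libraries at 0 h) than in others. Replicates 1, 2, and 3 of the revertant line at 0.5 h had shares of 0.214%, 0.277%, and 0.288%. How far this spread contributed to calls lost with spike-in scaling was not tested.

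**Figure D2:**
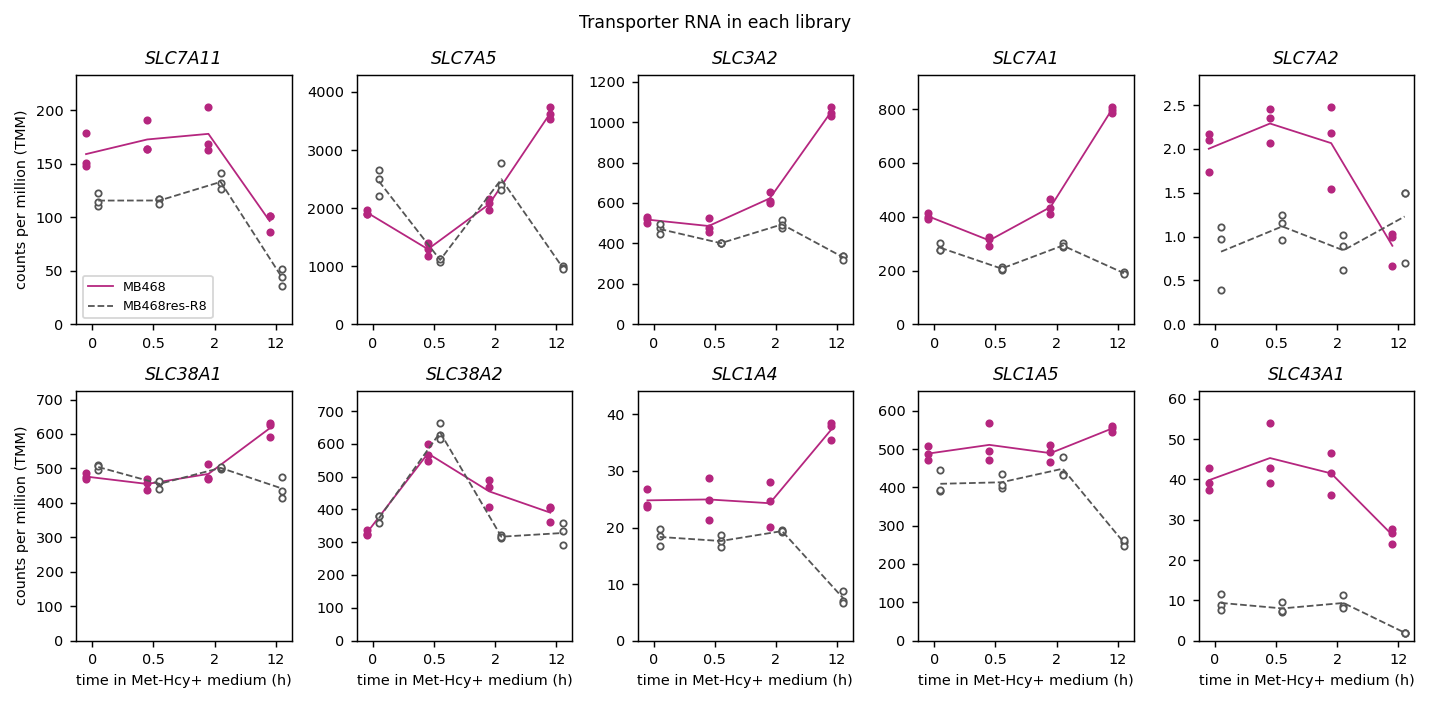
TMM-normalized CPM of each transporter gene in every library (linear axes from 0) against time in Met-Hcy+ medium, with filled magenta points for MB468, open gray points for MB468res-R8, and lines through the means of 3 libraries. SLC7A5, SLC3A2, and SLC7A1 of the lines lie apart at 12 h, where SLC7A5 is near 3637 CPM in MB468 and 980 in MB468res-R8.

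At 0.5 h SLC38A2 had risen and SLC7A5 and SLC7A1 had fallen in each line. In MB468, 1 transporter rose and 2 fell, against 17.6% and 16.4% of all tested genes. In MB468res-R8, 1 rose and 4 fell, against 17.4% and 16.3%. SLC38A2 in MB468 went from 339, 325, and 321 CPM at 0 h to 599, 565, and 548 at 0.5 h. In MB468res-R8 it went from 380, 358, and 381 to 663, 626, and 616. All 6 libraries at 0.5 h lay above those at 0 h, with log2 fold changes of 0.80 ± 0.07 (edgeR adjusted p = 2.4e-09) and 0.77 ± 0.07 (4e-09), and the difference between the lines was -0.03 ± 0.10 and did not pass. SLC7A5 in MB468 fell from 1908, 1908, and 1968 CPM to 1293, 1180, and 1409. In MB468res-R8 it fell from 2509, 2666, and 2212 to 1117, 1078, and 1130. The log2 fold changes were -0.58 ± 0.07 (edgeR adjusted p = 1.1e-06) and -1.15 ± 0.07 (3.1e-11). SLC7A5 was the only transporter whose response differed between the lines at 0.5 h, with 0 higher and 1 lower against 1.2% and 1.7% of all tested genes (difference -0.58 ± 0.10, edgeR adjusted p = 0.0012). With spike-in scaling, which moved the median of all genes in this difference by 0.26, it was -0.31 and did not pass. SLC7A1 fell by 0.36 in MB468 and 0.46 in MB468res-R8 on the log2 scale (edgeR adjusted p = 6.1e-09 and 3e-11). SLC3A2 and SLC38A1 also fell in MB468res-R8, by 0.23 and 0.15 on the log2 scale, and were at -0.09 and -0.07 in MB468 without passing, although SLC3A2 passed there without MB468 0.5 h replicate 3 (-0.15). With spike-in scaling these changes of SLC3A2 and SLC38A1 in MB468res-R8 were -0.19 and -0.10 and did not pass, which left 1 transporter higher and 2 lower, against 8.1% and 5.62% of all tested genes. SLC7A11 was at 0.13 ± 0.11 in MB468 and 0.00 ± 0.11 in MB468res-R8, and neither passed, although with no low-count filter it passed in MB468 at 0.5 h (0.13) and at 2 h (0.16), and with spike-in scaling it was at -0.09 and -0.25 at those times without passing. Its antisense neighbour SLC7A11-AS1 had 1 to 5 counts a library at 0 h and 11 to 32 at 0.5 h in either line. The libraries did not keep strand, so reads where SLC7A11 and SLC7A11-AS1 overlap cannot be told apart, and SLC7A11 itself had at least 913 counts in every library.

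At 2 h, with TMM scaling, SLC7A5 and SLC7A1 did not pass against 0 h in either line, and the response of SLC38A2 differed between the lines. In MB468, 2 transporters were higher and 0 lower than at 0 h, against 8.88% and 7.47% of all tested genes. In MB468res-R8, 0 were higher and 1 lower, against 2.52% and 1.85%. SLC7A5 was at 2157, 2082, and 1966 CPM in MB468 and 2405, 2772, and 2319 in MB468res-R8, and the log2 changes from 0 h were 0.10 ± 0.07 and 0.02 ± 0.07. SLC7A1 was at 0.12 ± 0.04 and 0.04 ± 0.04, and it passed in MB468 without MB468 2 h replicate 3 (0.16), as did SLC1A5 in MB468res-R8 without MB468res-R8 0 h replicate 2 (0.20). SLC38A2 in MB468 was still raised at 407, 489, and 470 CPM, a log2 fold change of 0.47 ± 0.07 (edgeR adjusted p = 2.1e-05). In MB468res-R8 it was 322, 312, and 316 CPM, below all 3 libraries at 0 h, with a log2 fold change of -0.24 ± 0.07 (edgeR adjusted p = 0.048). The difference between the lines was -0.71 ± 0.10 (edgeR adjusted p = 3.2e-05) and was the only one among the transporters, with 0 higher and 1 lower against 2.19% and 2.88% of all tested genes. The fall of SLC38A2 in MB468res-R8 was no longer called when any 1 of the 6 libraries compared was left out, with values from -0.27 to -0.22. SLC3A2 rose in MB468 from 499, 523, and 532 CPM to 601, 656, and 611, a log2 fold change of 0.27 ± 0.04 (edgeR adjusted p = 1.4e-05). Spike-in scaling moved the median of all genes in MB468 at 2 h by -0.42. On that scale SLC3A2 was at -0.15 and SLC38A2 at 0.05, neither passed, and 0 transporters were higher and 6 lower, against 1.63% and 62.9% of all tested genes. SLC7A5 (-0.32) and SLC7A1 (-0.30) were among those that passed as lower. The difference between the lines in SLC38A2 was then -0.33 and did not pass.

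**Figure D3:**
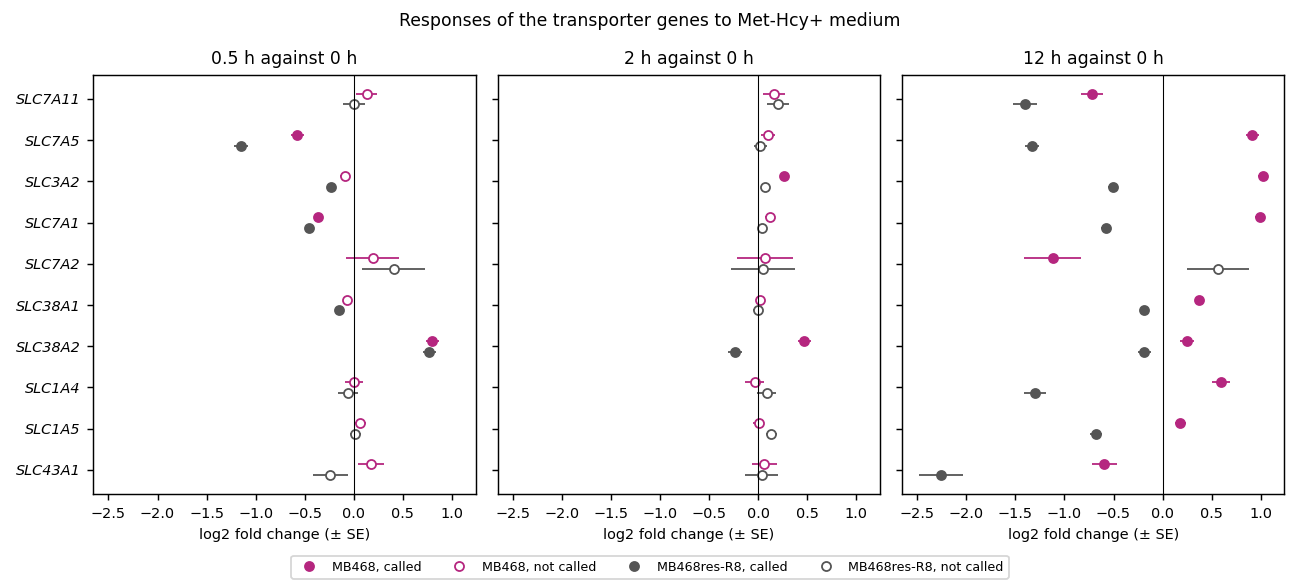
Log2 fold change against 0 h of each transporter at 0.5, 2, and 12 h in MB468 (magenta) and MB468res-R8 (gray), with bars of 1 SE from a fit to 24 libraries and filled points for an adjusted p under 0.05. SLC38A2 lies to the right in both lines at 0.5 h. At 12 h SLC7A5, SLC3A2, SLC7A1, and SLC1A4 lie to the right in MB468 and to the left in MB468res-R8. Several points change side with spike-in scaling. Among them are SLC7A5 (-0.32), SLC3A2 (-0.15), SLC7A1 (-0.30), SLC38A1 (-0.39), SLC1A5 (-0.41), and SLC43A1 (-0.35) in MB468 at 2 h, and SLC1A5 in MB468 at 12 h (-0.054).

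At 12 h all 10 transporters had changed in MB468, with 7 higher and 3 lower than at 0 h, against 36.1% and 34.7% of all tested genes. In MB468res-R8 0 were higher and 9 lower, against 30.2% and 31.1%. Changes of at least 2-fold that passed were seen for 2 transporters in MB468 (15.9% of all tested genes) and 4 in MB468res-R8 (9.82%). Over the 10, the log2 fold change had a median of 0.31 in MB468 and -0.63 in the revertant line, beside 0.01 and -0.02 over all tested genes. Tested directly, the 12 h response of MB468res-R8 was lower than that of MB468 for 9 transporters and higher for 1, against 30.3% and 26.2% of all tested genes, and 6 of these differences were at least 2-fold (12.2%). Both responses share the 0 h libraries of their own line with the earlier times.

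The heavy chain SLC3A2 and its light chain SLC7A5 rose together in MB468. SLC7A5 reached 3628, 3543, and 3740 CPM in MB468 at 12 h and was 1011, 977, and 953 in MB468res-R8. Every MB468 library lay above and every MB468res-R8 library below those of its line at 0 h, with log2 fold changes of 0.92 ± 0.07 (edgeR adjusted p = 1.8e-10) and -1.33 ± 0.07 (9.8e-13). The difference between the lines was -2.24 ± 0.10 (edgeR adjusted p = 6.1e-14). The pseudogenes SLC7A5P1 and SLC7A5P2 resemble SLC7A5 and could take part of its reads, and they held at most 193 and 94 counts in a library. SLC3A2 was 1074, 1045, and 1030 CPM in MB468 and 336, 339, and 319 in MB468res-R8. Its log2 fold changes were 1.02 ± 0.04 (edgeR adjusted p = 8.3e-23) and -0.51 ± 0.04 (6.3e-13), and the difference between the lines was -1.53 ± 0.06. The ratio of SLC7A5 to SLC3A2 per kb in MB468 was 5.0 ± 0.12 (SD, n = 3) at 0 h, 3.57 ± 0.09 at 0.5 h, 4.46 ± 0.31 at 2 h, and 4.65 ± 0.19 at 12 h. In MB468res-R8 it was 7.0 ± 0.29, 3.71 ± 0.09, 6.78 ± 0.44, and 3.97 ± 0.09. The ratio had its lowest mean at 0.5 h in both lines, and in MB468res-R8 it was low again at 12 h. With canonical transcript lengths the ratios were smaller, from 1.10 to 2.16.

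SLC7A11, the light chain of the cystine carrier, moved opposite to SLC3A2 in MB468. Its CPM fell from 147, 150, and 179 at 0 h to 101, 102, and 86.5 at 12 h in MB468. In MB468res-R8 it fell from 110, 122, and 114 to 35.9, 51.9, and 44. The groups did not overlap in either line, with log2 fold changes of -0.72 ± 0.11 (edgeR adjusted p = 1.8e-05) and -1.40 ± 0.12 (1.9e-08). The difference between the lines was -0.68 ± 0.17 (edgeR adjusted p = 0.0019), and with spike-in scaling it was -0.41 and did not pass. Per kb, the ratio of SLC7A11 to SLC3A2 was 0.203 at 0 h and 0.0609 at 12 h in MB468, and 0.163 and 0.0879 in MB468res-R8. The ratio of SLC7A5 to SLC7A11 was 24.7 ± 2.15 (SD, n = 3) and 76.9 ± 9.30 in MB468, and 43.1 ± 3.47 and 46.3 ± 9.71 in MB468res-R8. SLC43A1 also fell in both lines, to 26.8, 24.1, and 27.7 CPM in MB468 and to 1.93, 1.95, and 1.99 in MB468res-R8. All of these libraries were below the 0 h libraries of their line, with log2 fold changes of -0.59 ± 0.13 (edgeR adjusted p = 0.00042) and -2.25 ± 0.22 (3e-08). The difference in the SLC43A1 response was -1.66 ± 0.27 (edgeR adjusted p = 2e-05).

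The cationic amino acid carriers behaved differently from each other. SLC7A1 rose to 807, 797, and 787 CPM in MB468 and fell to 190, 194, and 187 in MB468res-R8. No library overlapped with 0 h, and the log2 fold changes were 0.99 ± 0.04 (edgeR adjusted p = 8.9e-23) and -0.58 ± 0.04 (1.2e-14), a difference of -1.57 ± 0.06 (3.1e-23). SLC7A2 fell in MB468 from 1.74, 2.17, and 2.1 CPM to 0.994, 0.664, and 1.03, a log2 fold change of -1.12 ± 0.29 (edgeR adjusted p = 0.00065). In MB468res-R8 it was 1.12, 0.393, and 0.977 CPM at 0 h and 1.49, 0.701, and 1.49 at 12 h. These libraries overlapped, and the log2 fold change of 0.56 ± 0.32 did not pass with all libraries, though it did without MB468res-R8 0 h replicate 1 (0.91) or MB468res-R8 12 h replicate 2 (0.82). SLC7A2 was the 1 transporter with a higher response in MB468res-R8 (1.68 ± 0.43, edgeR adjusted p = 0.00085).

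Among carriers of small neutral amino acids and glutamine, SLC1A4 had the largest difference between the lines. It was 23.9, 23.6, and 26.9 CPM at 0 h and 37.9, 35.5, and 38.4 at 12 h in MB468. In MB468res-R8 it was 16.8, 19.7, and 18.5 CPM at 0 h and 7.04, 8.76, and 6.64 at 12 h. The 12 h libraries lay above those at 0 h in MB468 and below them in MB468res-R8, with log2 fold changes of 0.60 ± 0.09 (edgeR adjusted p = 4.4e-07) and -1.30 ± 0.11 (3.2e-12), a difference of -1.89 ± 0.14. SLC1A5 was 471, 486, and 508 CPM at 0 h and 560, 545, and 555 at 12 h in MB468, a small rise of 0.18 ± 0.06 (edgeR adjusted p = 0.006) that was -0.054 with spike-in scaling and did not pass. In MB468res-R8 it fell from 390, 445, and 392 CPM to 256, 248, and 263, a log2 fold change of -0.68 ± 0.06 (edgeR adjusted p = 6.9e-11). SLC38A1 rose in MB468 by 0.37 ± 0.04 (edgeR adjusted p = 2.2e-10), from 469, 475, and 486 CPM to 631, 627, and 591. In MB468res-R8 it fell by 0.19 on the log2 scale, from 495, 509, and 508 CPM to 415, 476, and 434. SLC38A2 was raised in MB468 by 0.25 ± 0.07 (edgeR adjusted p = 0.0023) and in MB468res-R8 had a log2 fold change of -0.19 ± 0.07 (0.02), with 290, 360, and 334 CPM at 12 h overlapping the libraries at 0 h. That call was lost without MB468res-R8 0 h replicate 1 (-0.15) or 3 (-0.18) or MB468res-R8 12 h replicate 1 (-0.08). With spike-in scaling SLC38A1 and SLC38A2 were 0.14 and 0.02 in MB468 and -0.16 and -0.15 in MB468res-R8, and none of these passed. The median of all genes was -0.23 in MB468 and 0.00 in MB468res-R8 on that scale. The transporters counted 4 higher and 3 lower in MB468, against 17.2% and 40.2% of all tested genes. In MB468res-R8 they counted 0 higher and 7 lower, against 18.8% and 21.2%.

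The interval from 2 h to 12 h was compared in each line as well. In MB468, 6 transporters rose and 4 fell between 2 h and 12 h, against 34.6% and 35.1% of all tested genes. In MB468res-R8, 0 rose and 8 fell, against 30.7% and 31.8%. SLC7A5 rose by 0.81 ± 0.07 in MB468 over this interval and fell by 1.35 on the log2 scale in MB468res-R8, and SLC7A1 rose by 0.87 ± 0.04 and fell by 0.62. SLC38A2 was the 1 transporter that was above its 0 h level in MB468 at both times and lower at 12 h than at 2 h (-0.22 ± 0.07, edgeR adjusted p = 0.0056). With spike-in scaling that change was -0.03 and did not pass. In MB468res-R8 SLC38A2 had a log2 fold change of 0.05 ± 0.07 from 2 h to 12 h, which did not pass. The rise of SLC1A5 over this interval in MB468 was lost without MB468 2 h replicate 3 (0.14). In MB468res-R8, SLC38A2 passed without MB468res-R8 12 h replicate 1 (0.16) and SLC7A2 without replicate 2 (0.77). Each count of 0 transporters in a direction with TMM scaling, here and above, was also 0 by the Wald test of DESeq2 and 0 at an unadjusted p under 0.05, except that 1 transporter was higher at that unadjusted p in MB468res-R8 at 2 h.

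Set side by side at 12 h, MB468res-R8 had 0 transporters higher and 9 lower than MB468, against 33.9% and 39.2% of all tested genes, and 7 of the differences were at least 2-fold (20.3%). They ran from -0.25 ± 0.07 for SLC38A2 to -3.74 ± 0.19 for SLC43A1, with SLC1A4 at -2.33 ± 0.10, SLC7A1 at -2.07 ± 0.04, SLC7A5 at -1.89 ± 0.07, SLC3A2 at -1.66 ± 0.04, SLC7A11 at -1.14 ± 0.12, and SLC1A5 at -1.11 ± 0.06. With only the libraries compared in the fit, the difference of SLC38A2 was -0.21 and did not pass, which left 8 lower. SLC7A2 had a log2 difference of 0.44 ± 0.30 that did not pass (edgeR adjusted p = 0.18), and it passed without MB468res-R8 12 h replicate 2 (0.70). Summed over the 10 transporters, CPM in MB468 was 4366 ± 102 (SD, n = 3) at 0 h, 3874 ± 206 at 0.5 h, 4801 ± 175 at 2 h, and 7204 ± 73.9 at 12 h. In MB468res-R8 the sum was 4649 ± 287, 3362 ± 36.1, 4715 ± 290, and 2582 ± 64.5. SLC7A5 made up 44.2% of the sum at 0 h and 50.5% at 12 h in MB468, and 52.9% and 38.0% in MB468res-R8.

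Over the 8 group means the transporters varied together to different degrees, given here as a description with no test since the points share libraries and cell lines. SLC1A4 and SLC1A5 had the highest Pearson r among the 45 pairs of transporters (0.985), followed by SLC3A2 and SLC7A1 (0.977), and SLC7A2 and SLC38A1 had the lowest (-0.47). Among the 6391 genes whose mean was no lower than 5 on the log2 CPM scale, those most like a transporter other than SLC1A5 over the 8 groups were AP1AR for both SLC7A1 (0.994) and SLC3A2 (0.987), LZTS3 for SLC7A11 (0.996), ATP6V0A4 for SLC43A1 (0.998), ANAPC2 for SLC7A5 (0.988), JUNB for SLC38A2 (0.988), HAX1 for SLC1A4 (0.989), SHARPIN for SLC38A1 (0.983), and RPS12 for SLC7A2 (0.984). Each was picked as the highest r among the 6391 genes over only 8 points, so its size does not show shared regulation.

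Other carriers of the plasma membrane did not follow a single direction. Of 21 further carrier genes, 13 passed the low-count filter, and at 12 h in MB468 3 were higher, 6 lower, and 4 did not pass, with a median log2 fold change of -0.67. In MB468res-R8 3 were higher, 5 lower, and 5 did not pass, with a median of -0.61. Shares of all tested genes at 12 h were 36.1% higher and 34.7% lower in MB468, and 30.2% and 31.1% in MB468res-R8. With spike-in scaling 1 was higher and 7 lower in MB468, against 17.2% and 40.2% of all tested genes. In MB468res-R8 2 were higher and 5 lower on that scale, against 18.8% and 21.2%. SLC6A9 (GLYT1), a glycine carrier, rose in MB468 from 161 ± 9.71 to 324 ± 6.34 CPM (SD, n = 3, log2 fold change 1.01 ± 0.07, edgeR adjusted p = 5.9e-13), while it was 114 ± 8.77 CPM at 0 h and 54.2 ± 1.98 at 12 h in MB468res-R8. SLC6A14 (ATB0,+), a sodium- and chloride-dependent carrier of neutral and cationic amino acids, had the largest rise of this list that passed at 2 h in each line (0.66 ± 0.06 and 0.60 ± 0.06) and fell most at 12 h in MB468 (-1.41 ± 0.06, edgeR adjusted p = 5.2e-22). In MB468res-R8 at 12 h the largest rise was in SLC1A3 (0.74 ± 0.04), a glutamate carrier, and the largest fall in SLC7A8 (-1.62 ± 0.22), another light chain that pairs with SLC3A2, at 3.74 CPM at 0 h and 1.21 at 12 h.

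The amino acid response genes counted beside the transporters were ATF4 itself and genes that it is known to act on. They were 15 in all, and none was a transporter of the set. In MB468 12 were higher at 0.5 h, 11 at 2 h, and 11 at 12 h, when 3 were lower, while 1, 2, and 7 transporters were higher at those times. Of all tested genes in MB468, 17.6%, 8.88%, and 36.1% were higher at 0.5, 2, and 12 h, and 34.7% were lower at 12 h. In MB468res-R8 11 were higher at 0.5 h, 4 at 2 h, and 3 at 12 h, when 10 were lower. There 17.4%, 2.52%, and 30.2% of all tested genes were higher at 0.5, 2, and 12 h, and 31.1% were lower at 12 h. The difference between the lines at 12 h was lower for 13 and higher for 0 of the 15, with a median of -1.23, beside -1.19 for the transporters and -0.05 over all tested genes. It was lower for 30.3% and higher for 26.2% of all tested genes. With spike-in scaling 7 were higher and 4 lower in MB468 at 2 h, 9 and 4 at 12 h, and 3 and 8 in MB468res-R8 at 12 h. The shares of all tested genes higher and lower were then 1.63% and 62.9%, 17.2% and 40.2%, and 18.8% and 21.2%. In MB468res-R8 at 2 h 1 of the 15 was higher and 0 lower on that scale. There 180 of 14741 tested genes passed, and 63.9% of those were higher. CHAC1, an enzyme that degrades glutathione, rose most in MB468 at 2 h (2.95 ± 0.10) and at 12 h (5.42 ± 0.40 to 114 ± 0.69 CPM, log2 fold change 4.40 ± 0.10, edgeR adjusted p = 8.9e-30), and ASNS, asparagine synthetase, fell most (-0.95 ± 0.07, 1.4e-11). In MB468res-R8 the transcription factor ATF3 rose most at 2 h (0.64 ± 0.14). At 12 h DDIT4, an inhibitor of mTORC1 signaling, rose by 1.02 ± 0.07 and ATF3 fell by 2.18 on the log2 scale.

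SLC7A11 was also set beside 13 genes of cysteine, glutathione, and antioxidant metabolism. At 12 h in MB468 3 were higher, 9 lower, and 1 did not pass, with a median log2 fold change of -0.14. In MB468res-R8 0 were higher, 11 lower, and 2 did not pass, with a median of -0.47. Shares of all tested genes at 12 h were 36.1% higher and 34.7% lower in MB468, and 30.2% and 31.1% in MB468res-R8. HMOX1, heme oxygenase, fell most in both lines (-1.57 ± 0.10, edgeR adjusted p = 7.6e-12, and -1.83 ± 0.11, 1.7e-11), and SRXN1, sulfiredoxin, rose most in MB468 (0.29 ± 0.05). At 2 h in MB468 4 were lower, with GGT1 lowest at -0.60 ± 0.13, and 0 were higher by edgeR, against 1 at an unadjusted p under 0.05 and 1 by the Wald test of DESeq2. By edgeR 7.47% of all tested genes were lower and 8.88% higher at that time. With spike-in scaling 0 were higher and 9 lower in MB468 at 12 h, against 17.2% and 40.2% of all tested genes. In MB468res-R8 0 were higher and 8 lower on that scale, against 18.8% and 21.2%.

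**Figure D4:**
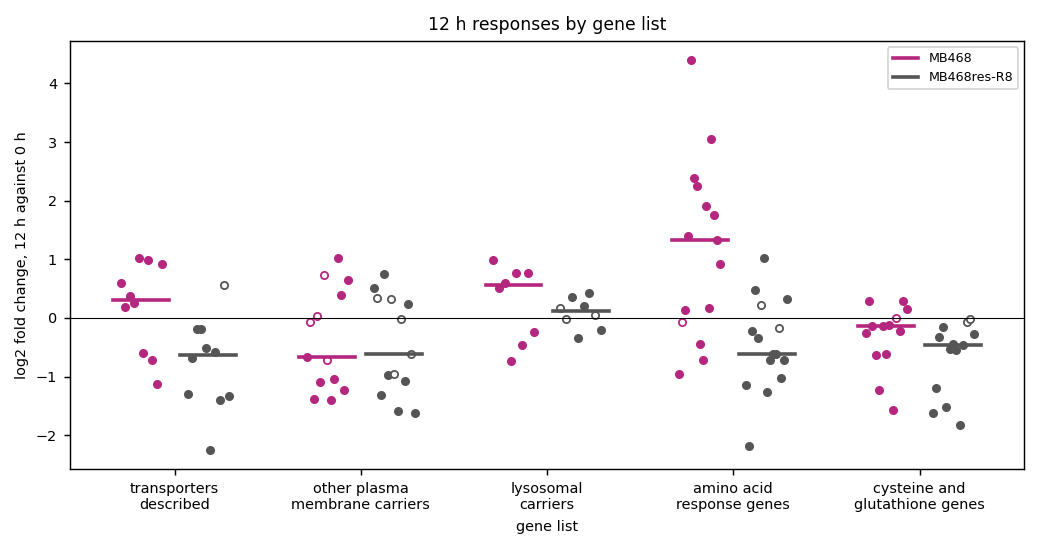
Log2 fold change at 12 h against 0 h of each tested gene in 5 lists, with MB468 in magenta, MB468res-R8 in gray, filled points for an adjusted p under 0.05, open points otherwise, and a bar at the median of each list. The medians of the transporters (0.31 and -0.63) and of the amino acid response genes (1.33 and -0.62) lie on opposite sides of 0 in the lines. With spike-in scaling the median of all genes in MB468 is -0.23, and SLC1A5 there is at -0.054.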

How the data were processed

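Poly(A) RNA with added spike-in RNA was prepared with a kit that keeps no strand and sequenced as single-end 100 bp reads. Per the labels, the authors used HISAT2 2.1.0 with a reference made of GRCh38/hg38 plus the spike-ins, then featureCounts (Subread 1.5.3) for gene counts, and the deposited table of raw counts was used. A deposited table of normalized signal and the authors' table of differential expression (its log2 fold changes, p-values, and score columns) were not used. Counts were fitted in R 4.3.3 with edgeR 4.0.16: spike-ins were left out, filterByExpr (minimum count 10, minimum total 15) kept 14741 genes, and TMM scaled the libraries. A robust quasi-likelihood model with a mean per group over 24 libraries gave each contrast, and p-values were Benjamini-Hochberg adjusted over all tested genes. Genes passed at an adjusted p under 0.05. CPM is a count scaled by the TMM effective library size, and lengths and coordinates come from GENCODE v44. Differences between the lines subtract the MB468 response from the MB468res-R8 response. The transporters and gene lists were chosen with earlier results of these data known. Genes named beside the transporters are, per list, the largest change in each direction at 2 h and 12 h in each line and, per transporter, those with the highest r, which for SLC1A5 is not reported here. Code was tested on simulated data. Alternatives were DESeq2 1.42.0 (size factors, Wald test), spike-in totals as library sizes, no filter, only the libraries compared, a replicate block, and leaving out each library. Canonical transcript length was added after seeing the data.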

Additional observations from a re-analysis of the deposited data

Results flagged for a closer look

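The responses of the lines, each against its own 0 h, differed by a direct test of the difference (MB468res-R8 minus MB468, log2) for these transporters. At 0.5 h the difference was -0.58 for SLC7A5, whose RNA fell in both lines. At 2 h it was -0.71 for SLC38A2, which was above 0 h in MB468 and below it in MB468res-R8. At 12 h it was -2.24 for SLC7A5, -1.89 for SLC1A4, -1.66 for SLC43A1, -1.57 for SLC7A1, -1.53 for SLC3A2, -0.86 for SLC1A5, -0.68 for SLC7A11, -0.56 for SLC38A1, -0.44 for SLC38A2, and 1.68 for SLC7A2. SLC7A11 and SLC43A1 fell in both lines at 12 h, and SLC7A5, SLC3A2, SLC7A1, SLC1A4, SLC1A5, SLC38A1, and SLC38A2 rose in MB468 and fell in MB468res-R8. Of these, the differences of SLC7A5 at 0.5 h, SLC38A2 at 2 h, and SLC7A11, SLC38A1, and SLC38A2 at 12 h did not pass with spike-in scaling. On that scale the changes of SLC1A5 (-0.054), SLC38A1 (0.14), and SLC38A2 (0.02) in MB468 at 12 h did not pass. Those of SLC38A1 (-0.16) and SLC38A2 (-0.15) in MB468res-R8 at 12 h did not pass either.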

How the results depend on the processing

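For single transporters, alternatives other than leaving out a library left 711 values with the same direction and side of the threshold, while 35 that passed in neither fit turned in sign (24 of them with spike-in totals as library sizes), 7 passed anew, and 18 no longer passed. A further 8 that passed in at least 1 of the fits turned in sign, all with spike-in totals as library sizes: SLC38A2 between the lines at 0 h (-0.12), SLC7A5 (-0.32), SLC3A2 (-0.15), SLC7A1 (-0.30), SLC38A1 (-0.39), SLC1A5 (-0.41), and SLC43A1 (-0.35) in MB468 at 2 h, and SLC1A5 in MB468 at 12 h (-0.054). With that scaling the number of transporters that passed was 6 in place of 2 in MB468 at 2 h, 3 in place of 5 in MB468res-R8 at 0.5 h, and 0 in place of 1 in MB468res-R8 at 2 h and in the difference between the lines at 0.5 h and 2 h. The share of passing genes that were higher was then 15% between the lines at 0 h, 14.0%, 2.52%, and 30.0% in MB468 at 0.5, 2, and 12 h, 59.0% and 63.9% in MB468res-R8 at 0.5 and 2 h, and 79.2%, 93.0%, and 69.9% in the differences between the lines at 0.5, 2, and 12 h. With no filter SLC7A11 passed in MB468 at 0.5 h and 2 h (0.13 and 0.16), and 2 transporters passed in MB468res-R8 at 2 h and in the differences at 0.5 h and 2 h, each in place of 1, and with only the libraries compared 2 passed in MB468res-R8 at 2 h. The cause of these changes was not tested. Leaving out 1 library gave 0 to 1 in MB468res-R8 at 2 h and 1 to 2 in the difference at 2 h, where SLC3A2 passed without MB468res-R8 0 h replicate 3 (-0.24), MB468 2 h replicate 1 (-0.22), or MB468res-R8 2 h replicate 2 (-0.23). Over single transporters, leaving out 1 library kept the direction and side of the threshold of 881 values, while 53 that passed in neither fit turned in sign, 11 passed anew, and 15 no longer passed.

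The labels do not say whether replicate numbers pair the libraries, and the numbers were not treated as pairs. In no comparison was every correlation of same-numbered deviations above 0.1. The mean ran from -0.19 to 0.28, the highest being that of MB468res-R8 at 2 h against 0 h. With 3 libraries a group, these correlations cannot decide whether the libraries were paired. With the number as a replicate block, 0 transporters passed in MB468res-R8 at 2 h in place of 1 (SLC38A2, -0.24), and no other call on a transporter changed.

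Depth limits SLC7A2, which had 8 to 72 counts a library and the largest standard errors of the set.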

Other observations

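Carriers of the lysosomal membrane, some of which release amino acids from degraded protein, were counted apart from those of the plasma membrane. Of the 9 listed genes found, 8 were tested. At 12 h in MB468 5 were higher and 3 lower than at 0 h, against 36.1% and 34.7% of all tested genes. In MB468res-R8 3 were higher, 2 lower, and 3 did not pass, while 30.2% of all tested genes were higher and 31.1% lower. CTNS, the cystine carrier of lysosomes, rose in MB468 from 20.7 ± 0.79 to 41.3 ± 1.09 CPM (SD, n = 3, log2 fold change 1.0 ± 0.07, edgeR adjusted p = 5.5e-16), opposite in direction to SLC7A11 in the same libraries, and was 19.1 ± 0.62 and 21.6 ± 1.03 CPM in MB468res-R8. SLC17A5, the sialic acid carrier sialin, fell most in MB468 (-0.73 ± 0.07) and in MB468res-R8 (-0.35 ± 0.07), and SLC36A4 rose most in MB468res-R8 (0.43 ± 0.11). PQLC2, a lysosomal carrier of cationic amino acids, fell most at 2 h in MB468 (-0.36 ± 0.10). With spike-in scaling 4 of these genes were higher and 3 lower in MB468 at 12 h, against 17.2% and 40.2% of all tested genes. In MB468res-R8 2 were higher and 1 lower on that scale, against 18.8% and 21.2%.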
